A study of Mus musculus with 12 samples.

Results

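The metabotropic glutamate receptor genes Grm2, Grm3, Grm4, Grm5, Grm7 and Grm8 were chosen by symbol, with earlier results of these data known. They make up 6 of the 55335 genes in the count matrices of 12 mouse cortices. The question was in which cell classes of the P21 cortex these receptors are transcribed, and whether their transcript levels differ between MYT1L Het and WT animals. Frozen P21 cortex of 12 mice gave the nuclei, 6 of them WT and 6 MYT1L Het, each genotype split into 3 males and 3 females, and the nuclei were barcoded with the Scale Biosciences Single Cell RNA Kit. Het mice carry the S710fsX frameshift in Myt1l, which encodes a neuronal zinc finger transcription factor, and WT mice came from the same line, bred on C57BL/6J. The pups of both genotypes had received ventricular injections of AAV9 carrying the hyPB transposase and the H2b-tdT-SRT calling card construct, so every animal compared here carries both vectors. The animals came from 4 litters, which the labels do not tie to single animals, and all were processed on the same plates.

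Metabotropic glutamate receptors are G protein-coupled receptors that tune synaptic transmission on a slower time scale than glutamate-gated channels. Group I receptors (here Grm5) couple to Gq and phospholipase C and lie mainly at the postsynaptic side. Group II (Grm2 and Grm3) and group III receptors (Grm4, Grm7 and Grm8) couple to Gi/o, inhibit adenylyl cyclase and often act as presynaptic autoreceptors or heteroreceptors that limit transmitter release, while Grm3 is also a receptor of astrocytes.

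After filtering and the removal of likely doublets, 33116 of 78743 barcodes remained, between 1551 and 4414 per animal, with 0 barcodes shared between animals. The total UMIs deposited per animal ranged from 23425408 to 59947428. A level is given as CPM, the UMIs of a gene scaled to a common total of the UMIs summed over an animal's nuclei of a class. Classes were set primarily by gates on marker UMIs, which took 46.9% of nuclei into 8 broad classes and then excitatory and inhibitory nuclei into 11 subclasses nested in them. As a second definition, chosen after the gates had been checked against markers they did not use, named Leiden clusters are written with the ending -like. The naming used the same marker lists and, among a cluster's leading genes, also the markers unused by the gates. The clusters therefore have no such check of their own. For layer 6 corticothalamic (L6 CT) nuclei the gate lay almost wholly inside the clusters, with 1584 of its 1654 nuclei (95.8%) among the 3775 L6 CT-like nuclei, so the clusters add nuclei that the gate left out. By contrast, only 22.4% of nuclei in the astrocyte gate, 37.0% in the OPC gate, 35.1% in the L5 NP gate and 17.4% in the striatal gate fell in clusters of that name. The L6b and DG gates had no cluster of their name. A cluster of 822 nuclei led by Prox1 and Glis3, both of the DG list, did not meet the naming criteria. Nor did an excitatory cluster of 514 nuclei that scored highest for L6b. The Sst and L2/3 IT gates shared 52.0% and 56.3% of their nuclei with clusters of their name. For these classes a gated value describes the gate only. In the L2/3 IT gate the unused markers Enpp2 (184 CPM) and Calb1 (43.5) were no higher than in the DG gate (188 and 49.0). In the L4/5 IT gate the unused marker Tox (118 CPM) was below the L5 NP gate (604), while Thsd7a (255) was highest. Nxph3 (L5 NP), Trpc6 (DG), Tac1 (Pvalb), Npy (Sst) and Bcl11b (striatal) were also not highest in their own gate. The remaining unused subclass markers were. The neuronal gene Myt1l was at 871 CPM in the astrocyte gate and at 184 CPM in astrocyte-like nuclei. In the OPC gate Myt1l was at 714 CPM (WT) and 725 CPM (Het), so this gate too held neuronal transcripts. It was at 756 CPM in the microglia-like cluster, against 16.6 CPM in oligodendrocyte-like nuclei, so the microglia-like cluster held neuronal transcripts and its receptor levels are not described below.

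Myt1l itself (ENSMUSG00000061911.15) was at 883 ± 45.8 CPM (SD, n = 6) over all WT nuclei and 985 ± 30.4 (SD, n = 6) over all Het nuclei. The mutation is a frameshift whose transcripts are counted together with those of the intact allele, so this level does not check the genotype.

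The 6 genes lie on 5 chromosomes of mm10 and differ widely in size. Grm2 (ENSMUSG00000023192.12, chromosome 9 from 106643095 to 106656082) spans 13 kb and Grm4 (ENSMUSG00000063239.17, chromosome 17 from 27422387 to 27521403) spans 99.0 kb. Grm3 (ENSMUSG00000003974.6, chromosome 5 from 9485541 to 9725170) spans 239.6 kb. The others are longer still: Grm5 (ENSMUSG00000049583.15, chromosome 7 from 87584168 to 88134907) spans 550.7 kb, Grm8 (ENSMUSG00000024211.15, chromosome 6 from 27275119 to 28135178) 860.1 kb and Grm7 (ENSMUSG00000056755.13, chromosome 6 from 110645581 to 111567230) 921.6 kb. Exons make up 1.27% of the annotated span of Grm3 and 0.64% of that of Grm7, and nuclear libraries also count intronic reads, so levels of different genes are not compared with each other here. Annotated genes on the opposite strand of the 6 receptors held few UMIs, at most 357 over all nuclei (Gm20387, opposite Grm7, against 254581 for Grm7). Genes overlapping on the same strand held up to 2919 UMIs at Grm5 (Gm44846), 157 at Grm3 (Gm42455) and 126 at Grm8 (Gm42801). Their part in the receptor counts was not tested.

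Over all nuclei summed per animal, Grm5 was at 2058 ± 148 CPM, Grm7 at 2331 ± 181, Grm8 at 615 ± 59.8, Grm4 at 28.7 ± 6.65 and Grm2 at 7.37 ± 1.23 (SD, n = 12). The means of Grm3 were 239 ± 43.0 CPM (WT) and 212 ± 20.96 CPM (Het, SD, n = 6). Grm2 was so sparse, with 811 UMIs over all nuclei, that its levels in most classes rest on few molecules.

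Grm5, the group I receptor gene, was transcribed in every neuronal class and was low in oligodendrocytes. Among the gated classes it was highest in Lamp5 interneurons at 3126 ± 336 CPM (SD, n = 12), followed by Pvalb interneurons at 2484 ± 369 (SD, n = 10), and these neighbours in the order were separated (Lamp5 higher in 10 of 10 animals, exact sign-flip permutation test, two-sided, p = 0.00195, adjusted p = 0.0201). From Pvalb down to L4/5 IT nuclei at 1992 ± 203 CPM (SD, n = 12) no neighbouring classes were separated. L6 CT nuclei were the lowest of the gated neuronal classes placed in the order, at 1216 ± 148 CPM (SD, n = 12). They were below the OPC gate at 1555 ± 150 in all 12 animals (exact sign-flip permutation test, adjusted p = 0.00879). The part of neuronal transcripts in the level of the OPC gate was not tested. The clusters turned this order around, with 957 ± 209 CPM in OPC-like nuclei (SD, n = 11) and 1188 ± 121 in L6 CT-like nuclei. These classes were not neighbours in the order and were not compared by a test. Vip-like nuclei, at 1149 ± 117 CPM, were the lowest neuronal cluster class ordered and did not separate from L6 CT-like nuclei. In the clusters, striatal-like nuclei stood above all other classes at 4815 ± 356 CPM and exceeded Lamp5-like nuclei (2994 ± 276) in all 12 animals (exact sign-flip permutation test, adjusted p = 0.00423). Oligodendrocytes were lowest under both definitions, at 84.1 ± 31.6 CPM in the gate and 40.2 ± 25.0 in the clusters.

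Grm2, a group II autoreceptor gene, stayed below 20 CPM in every class. Its highest gated mean was in the L5 NP gate at 18.7 ± 9.48 CPM (L5 NP-like nuclei 12.5 ± 8.68) and its highest clustered mean in L4/5 IT-like nuclei at 12.96 ± 2.76 (SD, n = 12). No neighbouring classes were separated in its order under either definition. In L6 CT nuclei only 6 Grm2 UMIs were counted over 1654 nuclei.

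Grm3, the other group II gene, had a different distribution. Among the cluster classes with enough nuclei per animal to be ordered, astrocyte-like nuclei were highest and Sst-like, Vip-like and Lamp5-like interneurons lowest. The 14 vascular-like nuclei, too few to be ordered, were at 1064 CPM when pooled, and 85.7% of them held a Grm3 UMI after thinning to 1500 UMIs (95% exact binomial interval 57.2% to 98.2%). In the 228 astrocyte-like nuclei it was at 2015 ± 656 CPM (SD, n = 11), above the next class, L5 NP-like nuclei at 577 ± 99.0, in all 11 animals (exact sign-flip permutation test, two-sided, adjusted p = 0.00586). L6 CT-like nuclei followed at 541 ± 115 CPM and did not separate from L5 NP-like nuclei, while both L4/5 IT-like (463 ± 103) and striatal-like nuclei (322 ± 73.1) were each below the class before in all 12 animals (exact sign-flip permutation test, adjusted p = 0.00423 for both). L2/3 IT-like nuclei had far less, 96.8 ± 22.9 CPM. The order among interneurons ran from Pvalb-like (54.7 ± 17.3) through Sst-like (20.2 ± 13.8) and Vip-like (13.1 ± 10.1) to Lamp5-like nuclei at 8.74 ± 4.58 CPM, and the last 3 did not separate from their neighbours. In the gated classes the astrocyte gate (610 ± 273) and L6 CT nuclei (551 ± 119) led and did not separate, and L6 CT nuclei exceeded L4/5 IT nuclei (438 ± 118) in 11 of 12 animals (exact sign-flip permutation test, adjusted p = 0.0201).

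The share of nuclei with a Grm3 UMI was also compared between classes. After each nucleus was thinned to 1500 UMIs, which excluded 0 nuclei, 71.1% of astrocyte-like nuclei held a Grm3 UMI (95% exact binomial interval 64.7% to 76.9%) and 47.2% of L6 CT-like nuclei did (45.6% to 48.8%). Without thinning these shares were 74.1% and 69.0%. In Lamp5-like nuclei the thinned share was 1.39% (0.72% to 2.42%) and the unthinned share 2.2%, at a median of 3521 UMIs per nucleus against 3322 in L6 CT-like nuclei. The order of shares was not that of the levels throughout, since the thinned share was 32.6% in the astrocyte gate and 48.5% in gated L6 CT nuclei. These intervals cover counting error only.

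Grm4, a group III gene best known from cerebellar parallel fibres, was low throughout. Striatal-like (76.2 ± 22.0 CPM), L5 NP-like (69.1 ± 21.9) and Sst-like nuclei (60.1 ± 19.1) had the highest clustered means and were not separated from each other in the order (SD, n = 12). L6 CT-like nuclei were at 23.0 ± 5.33 CPM and L2/3 IT-like nuclei at 8.27 ± 3.92. The gated order began with the L6b gate at 45.6 ± 44.3 CPM (SD, n = 6), which rests on 16 UMIs.

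Grm7, the group III receptor of presynaptic release sites, was high in most projection neuron classes named and low in Pvalb and Lamp5 interneurons. L5 NP-like nuclei (4253 ± 191 CPM) and Vip-like nuclei (4219 ± 362) were highest and not separated (SD, n = 12). Vip-like nuclei exceeded L4/5 IT-like nuclei (3846 ± 331) in 10 of 12 animals (exact sign-flip permutation test, adjusted p = 0.0341). Among the projection neuron clusters named, L6 CT-like nuclei were lowest at 1246 ± 117 CPM. Among interneurons Vip-like nuclei and Lamp5-like nuclei were at opposite ends of the order, with 333 ± 107 CPM in the latter. In the gates, Lamp5 nuclei were the lowest class at 226 ± 77.3 CPM, below oligodendrocytes (716 ± 148) in all 12 animals (exact sign-flip permutation test, adjusted p = 0.00879).

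Grm8, a further group III presynaptic receptor gene, was highest in L6 CT, L5 NP and Vip nuclei. It was at 1599 ± 173 CPM in L5 NP-like, 1580 ± 79.7 in L6 CT-like and 1495 ± 303 in Vip-like nuclei, which were not separated (SD, n = 12). All other neuronal classes were lower, from 490 ± 212 CPM in striatal-like to 32.5 ± 14.6 in Pvalb-like nuclei. L4/5 IT-like nuclei were at 302 ± 99.3 CPM and L2/3 IT-like nuclei at 194 ± 38.4. After thinning, 80.9% of L6 CT-like nuclei held a Grm8 UMI (95% exact binomial interval 79.6% to 82.2%), against 3.25% of Pvalb-like nuclei (2.45% to 4.23%). Unthinned shares were 91.9% and 6.69%. In the gates L6 CT nuclei (1602 ± 92.8) exceeded the L5 NP gate (1132 ± 213) in 11 of 12 animals (exact sign-flip permutation test, adjusted p = 0.0141), an order that the clusters did not keep. Among the excitatory subclasses named, L6 CT nuclei combined the lowest levels of Grm5 and Grm7 with high levels of Grm3 and Grm8. Excitatory nuclei without a subclass name are not covered by this.

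**Figure D1:**
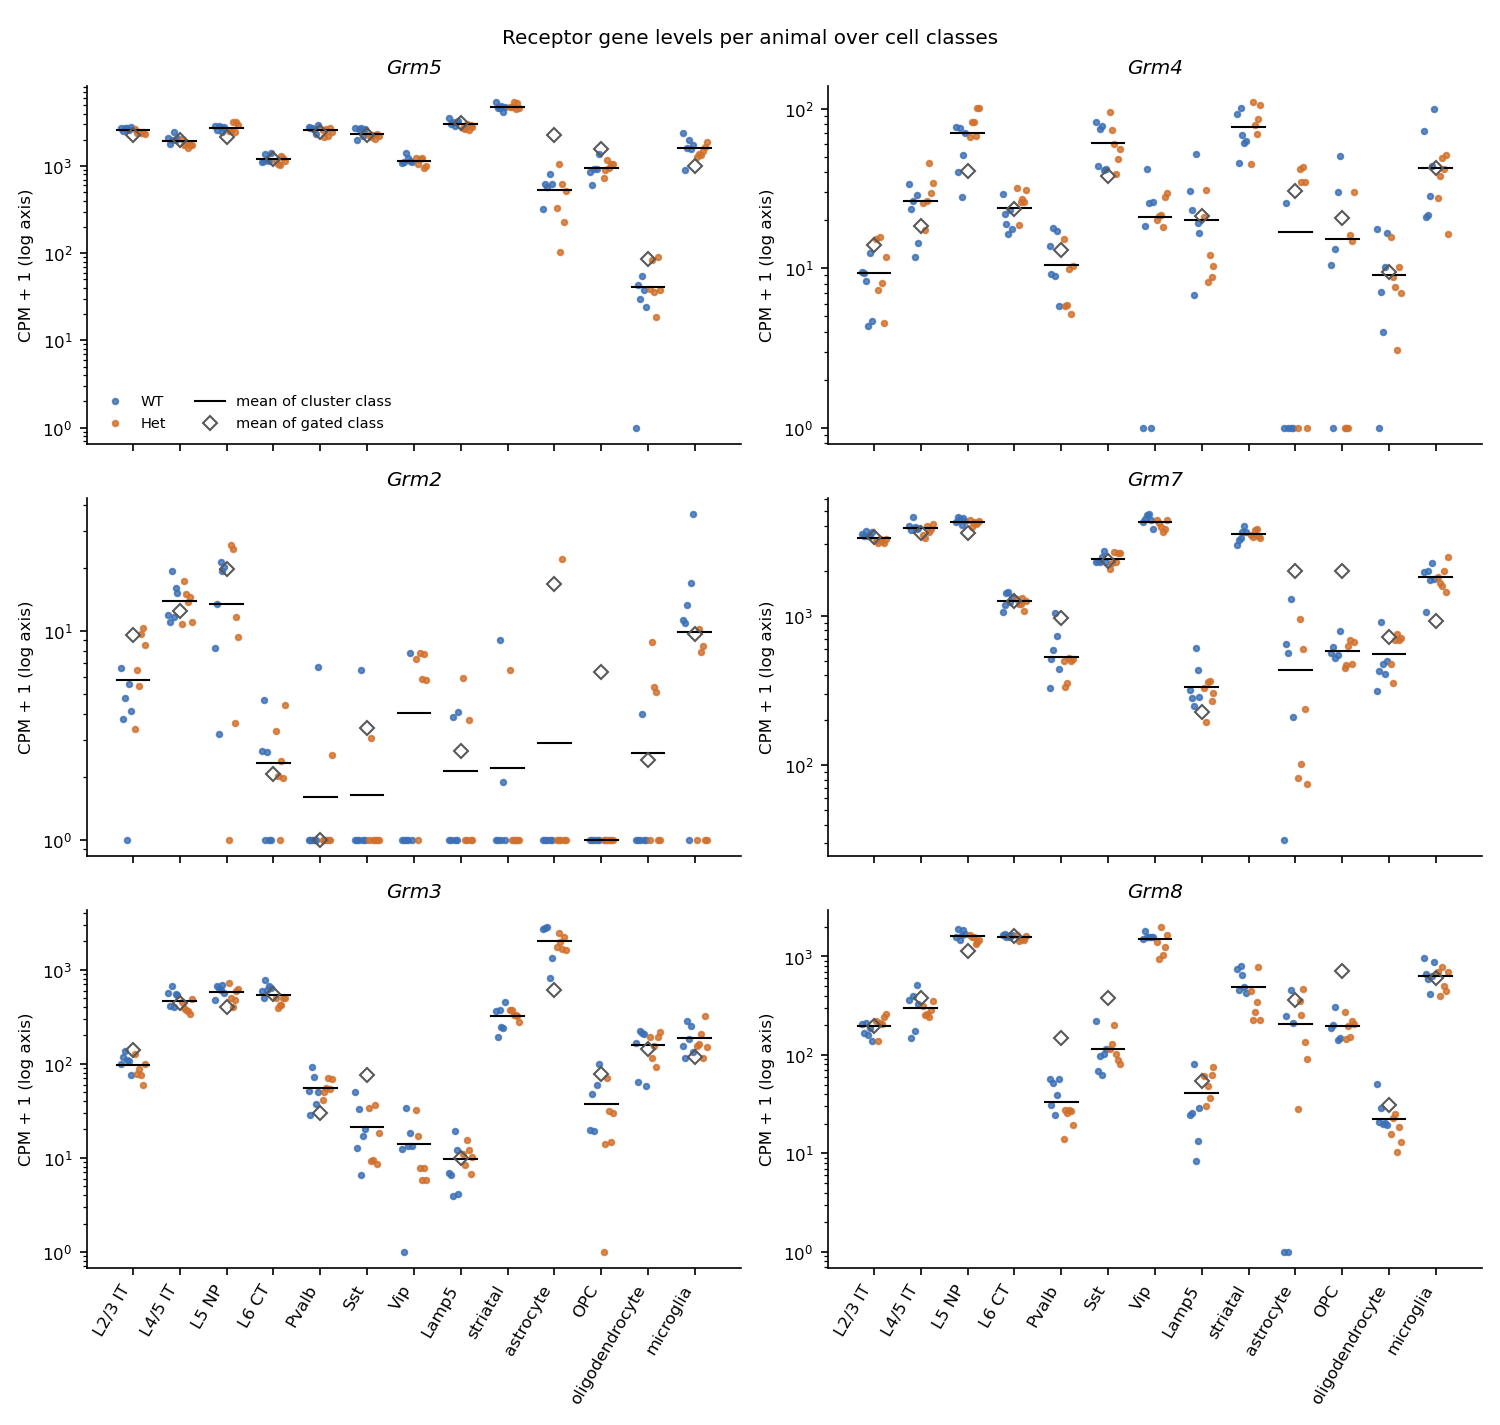
Level of each receptor gene in each class, in CPM + 1 on a log axis. Each point is 1 animal in the cluster classes (WT and Het in different colours), the line is the mean over animals, and the diamond is the mean in the gated class of that name. Grm3 stands highest in astrocyte-like nuclei (2015 CPM), Grm5 in striatal-like nuclei (4815 CPM), and Grm8 in L5 NP-like, L6 CT-like and Vip-like nuclei, at 1495 to 1599 CPM.

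Over all gated classes, neighbours in the order were compared in 72 pairs and separated in 10, with p-values adjusted over all pairs, and over the clusters in 78 pairs and 20. The smallest p that 12 animals allow is 0.000488, and pairs with fewer animals cannot go as low.

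The comparison of genotypes summed counts per animal and class and used edgeR's quasi-likelihood test with Benjamini-Hochberg adjustment over all genes tested in the class. Calls required both an adjusted p below 0.05 and a log2 fold change beyond 0.2 in either direction. The receptor genes passed the count filter in 54 combinations of gene and gated class, and in 1 of them the gene was called: Grm3 was lower in Het L6 CT nuclei. This result was already known from earlier work on these data when the genes were chosen. The paper, on the same animals, also lists Grm3 among P21 genes higher in WT. The call is therefore not independent support. Over all genes and gated classes, 0.0888% of tests were called, and in L6 CT nuclei 16 of 5298 genes, or 0.302%. In the sum of all nuclei edgeR called 0 of 16653 genes (984 at an unadjusted p under 0.05, 5.91%, and 31 called by DESeq2), and none of the 6 receptor genes had an unadjusted p under 0.05 there. In that sum, fewer nuclei of a class and less RNA per nucleus cannot be told apart.

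In the 6 WT animals, Grm3 in gated L6 CT nuclei was at 577, 514 and 794 CPM in the males and 614, 672 and 627 in the females. In the 6 Het animals it was at 577, 369.7 and 412 CPM in the males and 444, 483 and 527 in the females. Every Het animal was below the WT median of 620.4 CPM, and the highest Het animals overlapped the lowest WT animals. Among the males, 1 Het animal was as high as the lower WT animals. The mean fell from 633 ± 94.9 CPM in WT to 469 ± 76.2 in Het (SD, n = 6 each), a log2 fold change of −0.48 (standard error 0.11, edgeR's quasi-likelihood test, adjusted p = 0.0421), or 0.719 of the WT level.

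In the L6 CT-like clusters the lowest WT animal was at 495 CPM, the highest at 769.9, and the Het animals ranged from 388 to 504. Here 1 WT animal lay within the Het range and the other WT animals above it, whereas in the gate 2 WT animals lay within it. By edgeR's quasi-likelihood test Grm3 fell by 0.50 on the log2 scale there (standard error 0.09, adjusted p = 0.00603), where 50 of 7905 genes, or 0.633%, were called. The clusters contain almost all gated nuclei, so the 2 values are not independent.

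The gated call was lost with stricter gates and depended on single animals, while its direction did not change. It was lost when any of 9 of the 12 animals was left out, with log2 fold changes between −0.54 and −0.38 over all 12 omissions. By edgeR's quasi-likelihood test the adjusted p was 0.0527, 0.137, 0.0627, 0.0697 and 0.124 without WT male 1, WT male 3 and WT females 1, 2 and 3. It was 0.122, 0.11, 0.0992 and 0.0776 without Het males 2 and 3 and Het females 1 and 2. The call was kept without WT male 2, Het male 1 or Het female 3 (adjusted p = 0.00521, 0.00516 and 0.0332 by edgeR). In the larger clusters it was kept in all 12 omissions (−0.57 to −0.42, adjusted p from 0.000258 to 0.0297 by edgeR).

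**Figure D2:**
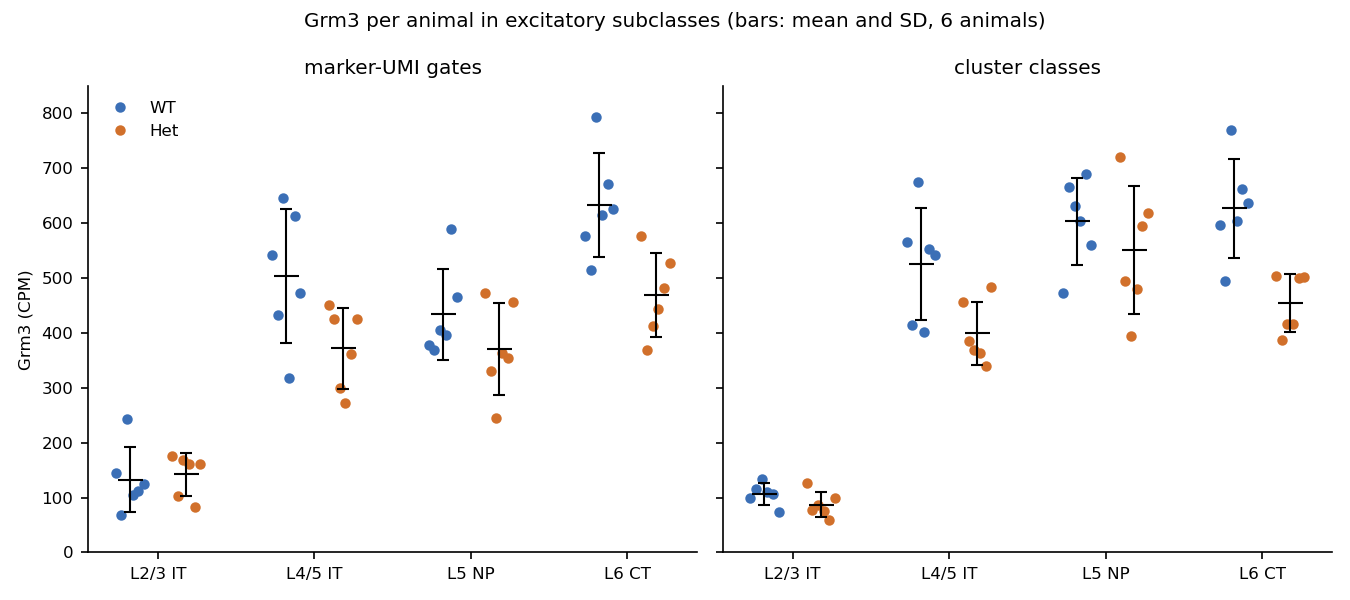
Grm3 level in CPM per animal in WT and Het nuclei of the L2/3 IT, L4/5 IT, L5 NP and L6 CT classes, by gate and by cluster. Points are animals, bars show the mean and SD (n = 6 per genotype). In L6 CT nuclei the means were 633 and 469 CPM in the gate, and no Het animal exceeded the WT median.

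**Figure D3:**
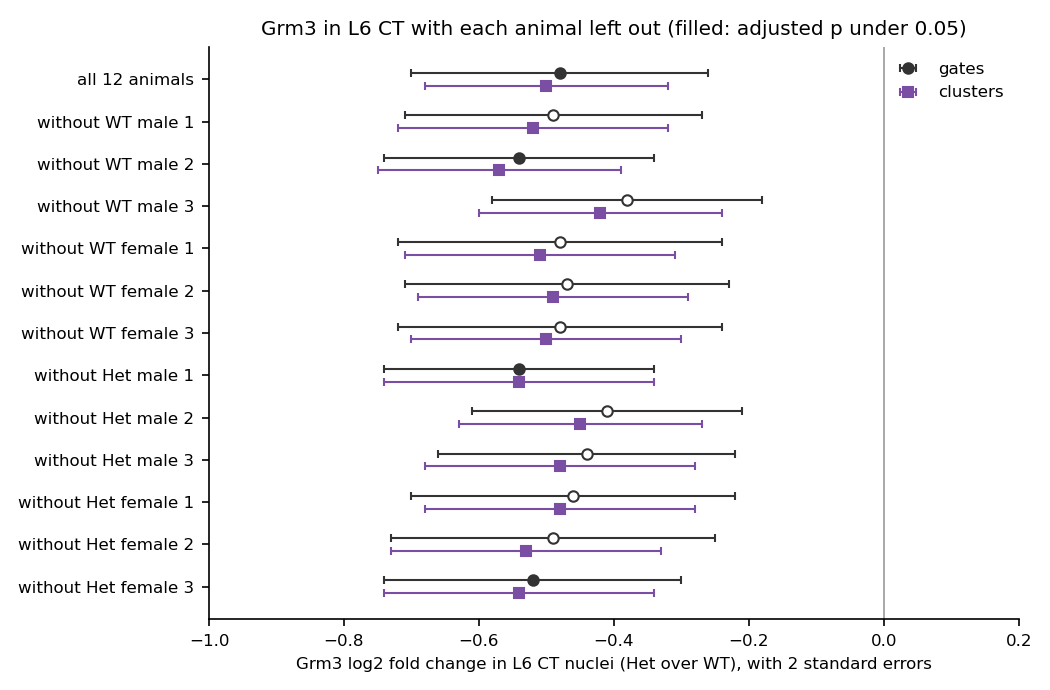
Log2 fold change of Grm3 in L6 CT nuclei, Het against WT, with each animal left out in turn, for gates and clusters. Error bars are 2 standard errors. All estimates stayed between −0.57 and −0.38.

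The share of gated L6 CT nuclei with a Grm3 UMI, after thinning to 1500 UMIs, ranged from 47.0% to 62.9% in WT animals (median 53.0%) and from 40.0% to 48.4% in Het animals (median 45.3%). The same contrast chose this gene, so these shares were not tested again. The marker UMIs of other classes in gated L6 CT nuclei overlapped between genotypes for all 17 lists compared. The gate chose its nuclei by these same lists, so low values in both genotypes are in part set by the gate. The astrocyte list was at 0.051 to 0.076 UMIs per 1000 in WT (median 0.065) and 0.042 to 0.068 in Het (median 0.053). UMIs were found for 7 of its 8 genes there, all but Gja1. In L6 CT-like nuclei, where all 8 had UMIs, the list was at 0.096 to 0.125 in WT and 0.076 to 0.098 in Het. Those ranges overlapped only slightly. The part of astrocyte transcripts in the Grm3 difference was not tested. The L6b list was at 0 UMIs in the gate. In L6 CT-like nuclei all 6 of its genes had UMIs, at 0.009 to 0.042 per 1000 in WT and 0.023 to 0.03 in Het. The striatal list in the gate was at 0.919 to 1.63 UMIs per 1000 in WT and 1.31 to 1.79 in Het. The list that defined the class, at 9.35 to 9.97 in WT and 8.97 to 10.1 in Het, also overlapped.

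Genes with a long genomic span were more often lower in Het L6 CT nuclei. Of 709 tested genes spanning over 200 kb, 61.6% had a log2 fold change below 0 and 11% an unadjusted p under 0.05 and a lower level in Het, against 50% and 3.7% of 4400 shorter genes. The median log2 fold change of the longer genes was −0.05, against −0.48 for Grm3. The part that gene span has in the values of Grm3, Grm5, Grm7 and Grm8, all over 200 kb, was not tested.

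The 300 bases around the RefSeq start of Grm3, the only receptor gene called, are shown because MYT1L binds DNA through the core motif AAGTT. The window covers chr5:9725303-9725602 of GRCm38.p6 on the minus strand, from 250 bases before to 50 after the start, with AAGTT or its reverse complement AACTT in capitals:
Grm3: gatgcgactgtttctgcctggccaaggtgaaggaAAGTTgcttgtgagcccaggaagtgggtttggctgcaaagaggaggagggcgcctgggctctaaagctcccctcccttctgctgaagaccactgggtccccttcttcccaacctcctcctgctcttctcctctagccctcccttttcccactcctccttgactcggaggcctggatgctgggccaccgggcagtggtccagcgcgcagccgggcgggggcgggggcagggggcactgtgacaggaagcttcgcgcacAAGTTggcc
It holds 2 matches on the gene's strand and 0 on the other. Of all 32851 windows of this length in the RefSeq table, 39.3% hold at least 1 match on either strand. Grm8 has windows for 3 starts, of which 2 hold 1 match each, and the windows of Grm7 and Grm2 hold 0. Windows for Grm4 and Grm5 were not used here. These matches describe the letters only and say nothing of binding in these animals.

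Among the excitatory subclasses, Grm3 in L4/5 IT nuclei had a lower estimate in Het without being called. WT animals were at 317 to 645 CPM (median 507) and Het animals at 272 to 450.3 (median 393), and although the groups overlapped, all 6 Het animals lay under the WT median. The log2 fold change was −0.51 (standard error 0.14, unadjusted p = 0.00091, edgeR's adjusted p = 0.14). In the L4/5 IT-like clusters it was −0.44 (standard error 0.12, edgeR's adjusted p = 0.157). In the gate 0.199% of all genes tested were called. With single animals left out, the gene was called there only without WT female 1 (gate −0.58, adjusted p = 0.0326, cluster −0.50, adjusted p = 0.0249, both by edgeR) and, in the clusters, without WT male 2 (−0.51, adjusted p = 0.0268). In L2/3 IT nuclei the definitions differed, with −0.04 (standard error 0.27, edgeR's adjusted p = 0.993) in the gate and −0.37 (0.15, 0.48, unadjusted p = 0.0248) in L2/3 IT-like clusters, where WT animals were at 74.6 to 134 CPM and Het animals at 58.4 to 127 and overlapped.

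In all excitatory nuclei, which contain both of these subclasses, Grm3 was at 291 to 427 CPM in WT (median 325) and 245 to 337 in Het (median 269), with overlapping groups and a log2 fold change of −0.29 (standard error 0.11, edgeR's adjusted p = 0.564). In the DG gate, which no cluster of that name matched, WT animals were at 59.98 to 259.6 CPM (median 146) and Het animals at 85.6 to 129.8 (median 118). These overlapped too, with a log2 fold change of −0.48 (standard error 0.23, edgeR's adjusted p = 0.789).

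The difference of the Het effect between L6 CT nuclei and each of 11 other gated classes was tested by exact permutation of the genotype over animals on log2(CPM + 1). None passed after adjustment. The effect in L6 CT nuclei minus that in L4/5 IT nuclei was −0.01 (exact permutation test, p = 0.95). This difference turned positive with stricter gates and ran from −0.08 to 0.11 with an animal left out. The lowest adjusted p, 0.131, was shared by the astrocyte gate (−0.87), L2/3 IT (−0.58), Pvalb (−2.26) and Sst nuclei (−2.90). In the clusters these differences were smaller, at −0.50, −0.16, −0.59 and −0.22, with adjusted p of 0.474, 0.581, 0.197 and 0.695 by the same exact permutation test. In 13 other cluster classes none passed either, the lowest adjusted p being 0.169 for striatal-like nuclei (−0.62). The Grm3 difference is therefore not shown to differ between L6 CT nuclei and another class.

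In astrocytes, the class with the highest Grm3 level among those ordered, no difference was called. In astrocyte-like nuclei the fitted log2 fold change was −0.13 (standard error 0.28, edgeR's adjusted p = 0.999) with 5 WT and 6 Het animals, while the mean of log2(CPM + 1) was 0.03 higher in Het, so no direction is given. In the astrocyte gate the fitted value was 0.28 (standard error 0.32, adjusted p = 0.936), and in striatal-like nuclei the fitted log2 fold change was 0.10 (standard error 0.16, edgeR's adjusted p = 0.967).

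Grm5 had a lower estimate in Het in all 14 gated classes tested, with an unadjusted p under 0.05 in 5 of them and 0 calls. In the clusters 12 of 16 estimates were lower and 4 higher, with such a p in 6 classes, all lower, and 0 calls. Over all genes, 50.7% of gated and 50.8% of cluster estimates were below 0, and 3.11% and 3.21% had such a p with a lower level. In the L2/3 IT gate WT animals were at 2333 to 2483 CPM (median 2392) and Het animals at 1970 to 2147 (median 2091). The 2 groups did not overlap there, as for 14 of all 3233 genes tested in that gate (0.433%), although edgeR's quasi-likelihood test gave a log2 fold change of −0.22 (standard error 0.08) with an adjusted p of 0.531. In the L2/3 IT-like clusters, with 2808 nuclei in place of 775, the groups overlapped (2542 to 2797 CPM in WT and 2344 to 2685 in Het), and the estimate was −0.16 (standard error 0.06, adjusted p = 0.383 by edgeR). L4/5 IT nuclei were at 1744 to 2314 CPM in WT and 1786 to 1892 in Het, with a log2 fold change of −0.23 (standard error 0.08, edgeR's adjusted p = 0.309), while L6 CT nuclei, at 1157 to 1559.8 CPM in WT and 1046 to 1297 in Het, had −0.23 (0.08, 0.274) in the gate and −0.12 (0.08, 0.646) in the clusters. The values were −0.14 (0.06, 0.566) in all excitatory and −0.20 (0.09, 1) in all inhibitory nuclei, and the groups overlapped in all of these classes but gated L2/3 IT. Among interneuron clusters the estimate was −0.16 (standard error 0.07, edgeR's adjusted p = 0.922) in Pvalb-like, −0.20 (0.08, 0.707) in Sst-like, −0.22 (0.08, 0.61) in Lamp5-like and −0.13 (0.10, 0.959) in Vip-like nuclei. In striatal-like nuclei, the highest in Grm5, it was 0.03 (0.09, 0.992). The sum of inhibitory clusters gave −0.03 (standard error 0.07), and striatal-like nuclei made up 424 of its 3671 nuclei in WT and 938 of 5016 in Het, whose part in the summed value was not tested.

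Grm7 had lower estimates in Het in 13 of 14 gated classes, with an unadjusted p under 0.05 in 3 and 0 calls, and in 12 of 16 cluster classes, with such a p in 2 and 0 calls. Over all genes, 3.11% of gated and 3.21% of cluster tests had such a p with a lower level. In L6 CT nuclei WT animals were at 1181 to 1560.3 CPM (median 1311) and Het animals at 973 to 1361 (median 1175). The groups overlapped, with a log2 fold change of −0.21 (standard error 0.08, edgeR's adjusted p = 0.355), and in L6 CT-like clusters the value was −0.10 (0.07, 0.711). In L2/3 IT-like clusters the groups did not overlap (3389 to 3705 CPM in WT and 3077 to 3252 in Het), as for 41 of all 6856 genes tested there (0.598%), with a log2 fold change of −0.17 (standard error 0.06, edgeR's adjusted p = 0.264), whereas in the L2/3 IT gate they did overlap (−0.11, standard error 0.09). In gated Lamp5 nuclei WT animals were at 173 to 400.3 CPM (median 246) and Het animals at 127 to 241 (median 195), again overlapping, and the estimate was −0.48 (standard error 0.23, edgeR's adjusted p = 0.775). It turned to 0.06 (standard error 0.15, edgeR's adjusted p = 0.999) when the upper limits on UMIs and genes per nucleus and the filter on log(genes)/log(UMIs) were both dropped, and in Lamp5-like clusters it was −0.22 (standard error 0.23, edgeR's adjusted p = 0.935). In all excitatory nuclei the Grm7 estimate was −0.15 (0.06, 0.586).

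Grm8 had lower estimates in Het in 5 of 11 gated classes (median 0.01) and in 11 of 14 cluster classes (median −0.21). An unadjusted p under 0.05 was found in 1 gated and 2 cluster classes, all lower, with 0 calls, beside 3.11% and 3.21% of tests over all genes. In L6 CT nuclei, where it is high, its log2 fold change was −0.04 (standard error 0.07) and the interval of 2 standard errors ran from −0.18 to 0.11, so a change of the size seen for Grm3 there lies outside it. In the L5 NP gate WT animals were at 1051 to 1668 CPM (median 1149) and Het animals at 889 to 1178 (median 999.7), with overlapping groups and a log2 fold change of −0.33 (standard error 0.11, unadjusted p = 0.00395, edgeR's adjusted p = 0.801). L5 NP-like clusters gave −0.20 (standard error 0.08, adjusted p = 0.631).

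Grm4 passed the filter in 4 gated classes and Grm2 in 1, with 0 calls and 0 unadjusted p under 0.05. For Grm4 in L6 CT nuclei the means were 20.4 ± 6.65 CPM (WT) and 24.9 ± 7.42 CPM (Het, SD, n = 6), a log2 fold change of 0.28 with a standard error of 0.28. In the clusters it had a higher estimate in Het in 7 of 7 classes, again with 0 unadjusted p under 0.05. For Grm2 in excitatory nuclei they were 7.14 ± 1.21 CPM (WT) and 7.68 ± 1.11 CPM (Het).

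**Figure D4:**
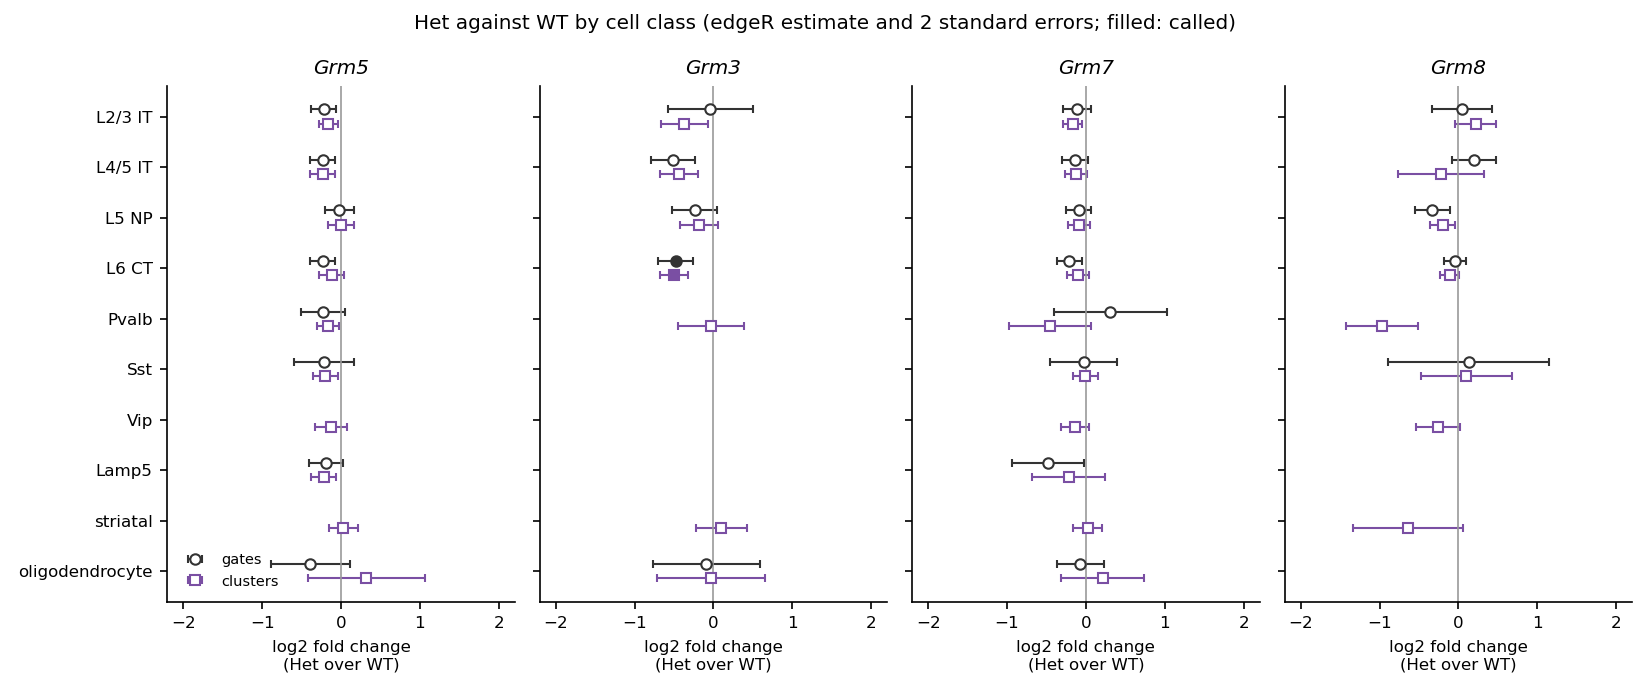
Log2 fold change, Het against WT, of Grm5, Grm3, Grm7 and Grm8 in 10 cell classes, shown where the gene passed the count filter, for gates and clusters. Error bars are 2 standard errors, and filled symbols mark called genes. Grm3 in L6 CT nuclei is the only gene called under either definition (−0.48 and −0.50), and every gated estimate of Grm5 lies below 0.

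Across the 54 gated combinations, 41 estimates were lower and 13 higher in Het, with a median of −0.12. Over all genes and classes, 50.7% of estimates were below 0. An unadjusted p under 0.05 was found in 13 combinations, all lower in Het, where 6.24% of all tests had such a p and 3.11% had it with a lower level. The broad classes contain the subclasses and all classes come from the same animals, so these combinations are not independent. In the clusters 46 of 67 estimates were lower, 15 had an unadjusted p under 0.05 (14 lower in Het) and 1 was called. Over all genes and cluster classes 50.8% of estimates were below 0, 6.87% had such a p, 3.21% had it with a lower level, and 0.161% were called.

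The effect of genotype on the receptor genes was also compared between males and females. The interaction of sex and genotype was called in 0 of 54 gated combinations (edgeR's quasi-likelihood test, 6 with an unadjusted p under 0.05, lowest adjusted p = 0.679), against 0.0111% of tests called and 4.97% with such a p over all genes. For Grm3 in L6 CT nuclei the interaction coefficient was −0.13 (standard error 0.22, edgeR's adjusted p = 0.991).

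Of 34 genes that bind, scaffold or act downstream of these receptors, 0 were called in any gated or clustered class. In all excitatory nuclei, the gated class with the most calls (24 of 11580 genes, 0.207%), 32 of them passed the filter, 2 had an unadjusted p under 0.05 and were lower in Het, and 4 were higher, where 7.72% of all genes tested had such a p and 3.42% were lower with it. Their median log2 fold change was 0.05, against −0.006 over all genes tested. The smallest p belonged to Shank1, a postsynaptic scaffold that binds Homer proteins and through them Grm5, at 0.28 (standard error 0.07, edgeR's adjusted p = 0.166). Gnao1, the Go alpha subunit to which group II and III receptors couple, followed at 0.17 (0.06, 0.348), then Rgs7, which speeds the shut-off of Go signals, at −0.13 (0.05, 0.514). In L6 CT nuclei 22 of the 34 genes were tested, of which 1 had an unadjusted p under 0.05 and was lower, and 3 were higher, beside 9.42% and 4.72% (lower) of all genes. The lower gene was Gnai1, an alpha subunit of Gi, at −0.46 (standard error 0.18, edgeR's adjusted p = 0.384). The higher genes were Shank2, a scaffold of the Shank family, at 0.36 (0.12, 0.238), Adcy5, an adenylyl cyclase, at 0.45 (0.21, 0.465), and Homer1, which binds group I receptors, at 0.58 (0.25, 0.507). In L6 CT-like nuclei 29 of the 34 genes were tested, and 4 were lower and 6 higher with an unadjusted p under 0.05, beside 10.1% and 4.82% (lower) of all genes. Shank2 again had the smallest p there, at 0.27 (standard error 0.09, edgeR's adjusted p = 0.203), followed by Rgs7 at −0.21 (0.07, 0.204) and Adcy9, an adenylyl cyclase, at 0.22 (0.08, 0.251), while Gnai1, Adcy5 and Homer1 were not among the 6 smallest.

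The genes whose levels over the 15 gated classes resembled a receptor gene most were ranked by Pearson's r of log2(CPM + 1), as a description over classes that share animals and libraries. For Grm5 these were Dlgap2, a postsynaptic density protein (r = 0.964), Astn1 (0.963) and Ica1 (0.962). For Grm7 they were Car10 (0.898), Schip1 (0.885) and A330008L17Rik (0.867), and for Grm8 Gm2824 (0.919), Adcy2 (0.878) and Spag6l (0.81). For Grm3 they were Nefm (0.905), Drg1 (0.892) and Nck2 (0.888), of which Nefm did not exceed 22.3 CPM in any class. For the sparse genes they were Crhr1, Palmd and Lemd1 (Grm2, 0.862 to 0.873) and Timm44, Prmt9 and Cacng5 (Grm4, 0.786 to 0.829). Between the receptor genes themselves the most alike pair depended on the measure. By Pearson's r over the gates it was Grm7 and Grm8 (0.638), and by Spearman's rho over the gates Grm4 and Grm8 (0.629, with 0.436 for Grm7 and Grm8). Over 14 cluster classes it was Grm4 and Grm7 by Pearson's r (0.731, with 0.201 in the gates) and Grm7 and Grm8 by Spearman's rho (0.745). Grm3 and Grm5 had a Pearson's r of −0.05 over the gates.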

How the data were processed

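The authors mapped single-nucleus reads to mm10 and counted them with ScaleRna, whose CellFinder step called nuclei. The deposited matrices hold expected counts per gene and barcode, not normalized and with some reads divided among genes, of which 92.6% are whole (equal to the nearest whole number with no tolerance). The submitters' processing notes name Seurat 4.3.0 and DESeq2 1.38.3. The members and lists were chosen with earlier results of these data known, among them that of Grm3 in L6 CT nuclei, which is therefore not independent support.

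Kept barcodes (34860) had 300 to 3000 genes, 800 to 6000 UMIs, mitochondrial UMIs up to 1% and log(genes)/log(UMIs) from 0.9 upwards. An animal's lowest barcode in the matrices held from 1500 (Het male 2) to 2179 UMIs (Het male 1), so the limit of 800 did not act. The paper reports more P21 nuclei after its limits than the 78743 barcodes here. In each animal the 5% with the highest Scrublet score were removed (scanpy 1.11.5). TDTOMATO, the transcript of the injected construct, was left out. A gate took a nucleus whose list held at least 3 UMIs and 75% of the UMIs of all broad lists; a subclass needed 2 times the mean share of its list in the broad class and 1.5 times the next ratio. An animal entered with at least 10 nuclei of a class, and a class with at least 3 animals per genotype. Sums were rounded and tested with edgeR 4.0.16 (R 4.3.3, TMM, filterByExpr, genotype only). Leiden clusters (leidenalg 0.10.2) were named by criteria adjusted after clusters were seen and before genotypes were compared in them. Earlier genotype results of these data were known by then. Syt6 was kept out of the L6 CT list because an earlier analysis of these data found it to differ by genotype. Values of cluster classes were added after seeing the data. Alternatives included DESeq2 1.42.0, size factors, no filter, sex, a replicate block, stricter gates, other nucleus filters and leaving out each animal. On simulated L6 CT counts, edgeR recovered 94.4% of 89 genes changed by a log2 fold change of 1 and 35.4% of 96 changed by 0.5, with 7 false calls among 5118 genes. Named genes are the 6 receptors (genotype values where called or with an unadjusted p under 0.05), Myt1l, the 3 genes of highest r per receptor and, of the pathway list, the 3 with the smallest p in the gated class with the most calls. Gnai1, Shank2, Adcy5 and Homer1 in L6 CT nuclei, and receptor values in classes outside this rule, were chosen after their values were seen.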

Additional observations from a re-analysis of the deposited data

Results flagged for a closer look

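In 1 of 30 groups of animals examined, an animal stood apart from the others of its group by Dixon's criterion at the 95% level, where chance marks about 1 group in 20. It was Het female 1, whose Myt1l level over all nuclei was 926.9 CPM, with a gap to the nearest Het animal of 0.684 of the group's range (critical value 0.625 for 6 animals). Grm3 in its gated L6 CT nuclei was at 444 CPM, within the range of the other Het animals.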

How the results depend on the processing

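Gated Grm3 in L6 CT nuclei kept its direction under every alternative run and its call under RLE size factors, no filter, DESeq2, sex as a term, no Scrublet removal, and neither upper limits nor the log(genes)/log(UMIs) ratio filter (dropped together). In the fits named here its log2 fold change lay between −0.48 and −0.40, and with an animal left out between −0.54 and −0.38 (clusters −0.57 to −0.42). Stricter gates gave −0.44 (adjusted p = 0.565 by edgeR) from fewer nuclei. Receptor calls numbered 1, against 3 without the low-count filter (all of Grm3, also in all excitatory and L4/5 IT nuclei), 0 with stricter gates, 0 to 1 with an animal left out, and 1 to 3 with an animal left out in the clusters. Genes called in L6 CT nuclei numbered 16, against 33 without the filter, 27 by DESeq2, 82 without upper limits and ratio, 1 with stricter gates, 50 in clusters (87 by DESeq2, 50 with sex) and 4 to 25 with an animal left out (in clusters 62, 55, 42, 38 and 45 without WT male 1, WT female 2, Het male 1 and Het females 2 and 3, and 22 to 87 in all). In all nuclei 0 genes were called, against 30 without the filter, 31 by DESeq2, 6 without upper limits and ratio, and 0 to 4 with an animal left out. Grm7 in Lamp5 nuclei reversed to 0.06 without upper limits and ratio. The causes were not tested.

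Replicate numbers are shared between genotypes, but same-numbered animals of a sex did not all deviate together: r ran from −0.6 to 0.07 over all nuclei, −0.162 to 0.164 in excitatory nuclei (median 0.051, other pairs 0.03) and −0.046 to 0.078 in L6 CT nuclei. With 3 animals per sex and genotype, this cannot tell whether same-numbered animals share more than a number. With the replicate block, Grm3 in L6 CT nuclei stayed called (−0.47, edgeR's adjusted p = 0.0122), and clusters gave 63 called genes and −0.49 for Grm3.

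Separated neighbours numbered 10, against 3 with stricter gates, 0 in WT animals alone (smallest possible p 0.0313) and 20 in clusters. The highest class stayed the same for 3 of 6 genes without upper limits and ratio, 3 in WT alone and 2 in clusters. Of the 18 most similar genes, 5 stayed with Spearman's rho and 0 in clusters. The L6 CT effect minus that of another class reversed for OPC-like (0.91) and microglia-like (−0.44) clusters, and with stricter gates for L4/5 IT (0.30) and L5 NP (0.62). With an animal left out, L4/5 IT gave −0.08 to 0.11 and DG −0.35 to 0.04, reversed to 0.11 and 0.04 without WT female 1 and to 0.10 without Het male 2.

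Detection limits the sparse genes: Grm2 and Grm4 passed the filter in 1 and 4 of the gated classes.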

Other observations

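Cluster classes were added after seeing the data. Among their receptor values, 2 more with an unadjusted p under 0.05 were singled out after they were seen. Grm8 in Pvalb-like nuclei, where it is low, had means of 42.5 ± 13.97 CPM (WT) and 22.4 ± 5.61 CPM (Het, SD, n = 6). The log2 fold change was −0.97 (standard error 0.23, unadjusted p = 0.000105, edgeR's adjusted p = 0.13). With single animals left out it was called only without WT female 1 (−1.07, adjusted p = 0.0296 by edgeR). Of all 5570 genes tested in Pvalb-like nuclei, 0 were called and 5.12% had an unadjusted p under 0.05.

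Grm3 summed over all inhibitory clusters had means of 74.6 ± 13.1 CPM (WT) and 103 ± 16.9 CPM (Het, SD, n = 6). The log2 fold change was 0.45 (standard error 0.13, unadjusted p = 0.00259, edgeR's adjusted p = 0.276). With single animals left out it was called only without Het male 3 (0.53, adjusted p = 0.0282 by edgeR). Of all 11435 genes tested there, 0.236% were called and 6.44% had an unadjusted p under 0.05. Striatal-like nuclei, whose Grm3 level is above that of every interneuron class, numbered 424 of 3671 inhibitory nuclei in WT and 938 of 5016 in Het, and within striatal-like nuclei the log2 fold change was 0.10. The part of this composition in the summed value was not tested.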
